A study of Mus musculus with 6 samples.

Results

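The genes described are the inhibitors of the cyclin-dependent kinases (CDKs) that drive the cell cycle, in both of their families, and the retinoblastoma family through which they act. They are the CIP/KIP genes Cdkn1a, Cdkn1b and Cdkn1c, the INK4 genes Cdkn2a, Cdkn2b, Cdkn2c and Cdkn2d, and the pocket protein genes Rb1, Rbl1 and Rbl2. They were taken by symbol through an Ensembl-based annotation of the mouse genome, and make up 10 of 46603 listed genes. All 10 had enough reads to be among the 15009 genes tested. RNA sequencing was done on mouse embryonic fibroblasts (MEFs), with 3 libraries from beta-actin knockout cells (KO, genotype beta-actin-/-) and 3 from wild-type cells (WT). Both genotypes were labelled BALB/c, from embryos aged 10.5 days, and both had spent 6 days in adipocyte differentiation medium, whose added agents were ascorbic acid, IBMX, dexamethasone and insulin. No library from before that medium was analysed here, so a difference present from the start and one that arose in it cannot be told apart. The labels do not say how many embryos, clones or cultures the libraries came from. The p-values below therefore set the difference between genotypes against the spread between these libraries, which may be technical.

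CIP/KIP proteins (p21 from Cdkn1a, p27 from Cdkn1b, p57 from Cdkn1c) bind whole cyclin-CDK complexes and chiefly block those of CDK2. INK4 proteins bind CDK4 and CDK6 alone and keep them from D-type cyclins. Both leave pRB, p107 and p130, from Rb1, Rbl1 and Rbl2, less phosphorylated, and in that state these proteins hold back E2F transcription factors and with them the genes of DNA replication. Cdkn2a also encodes p19Arf from a separate first exon, a protein that stabilises p53 by binding Mdm2. Exit from the cell cycle accompanies the differentiation of fat cells, and p18, from Cdkn2c, p21 and p27 are known to accumulate in differentiating adipocytes.

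The starts of 4 of the genes with a difference between the genotypes are shown first, Cdkn1a, Cdkn2a and Rbl1 because they hold the p53 element or E2F motifs described after them, and Cdkn2b as the neighbour and relative of Cdkn2a. The windows are from RefSeq on GRCm38.p6, run from 250 bases before to 50 bases after an annotated start, and are printed 5′ to 3′ on the gene's own strand. Capitals mark the motifs found, on either strand. Cdkn1a has a window for each of its distal and proximal starts, at chr17:29090729-29091028 and chr17:29093519-29093818 on the plus strand. Those of Cdkn2a, at chr4:89294570-89294869 and chr4:89282143-89282442 on the minus strand, lie at its distal first exon, which gives p19Arf, and at its proximal one, which gives p16Ink4a. The Cdkn2b window is chr4:89310983-89311282 and the Rbl1 window chr2:157204485-157204784, both on the minus strand.
Cdkn1a, distal start: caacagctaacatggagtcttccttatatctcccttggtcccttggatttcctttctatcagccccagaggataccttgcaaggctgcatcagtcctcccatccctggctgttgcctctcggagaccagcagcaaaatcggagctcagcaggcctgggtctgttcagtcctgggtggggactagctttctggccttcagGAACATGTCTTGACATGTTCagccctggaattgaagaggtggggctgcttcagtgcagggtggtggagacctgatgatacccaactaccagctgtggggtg
Cdkn1a, proximal start: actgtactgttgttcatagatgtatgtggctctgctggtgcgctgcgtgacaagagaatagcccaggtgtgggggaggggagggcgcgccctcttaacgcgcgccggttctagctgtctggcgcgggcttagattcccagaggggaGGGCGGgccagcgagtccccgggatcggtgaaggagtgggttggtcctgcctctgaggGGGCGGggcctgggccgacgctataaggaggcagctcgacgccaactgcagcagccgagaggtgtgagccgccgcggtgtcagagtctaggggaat
Cdkn2a, distal start: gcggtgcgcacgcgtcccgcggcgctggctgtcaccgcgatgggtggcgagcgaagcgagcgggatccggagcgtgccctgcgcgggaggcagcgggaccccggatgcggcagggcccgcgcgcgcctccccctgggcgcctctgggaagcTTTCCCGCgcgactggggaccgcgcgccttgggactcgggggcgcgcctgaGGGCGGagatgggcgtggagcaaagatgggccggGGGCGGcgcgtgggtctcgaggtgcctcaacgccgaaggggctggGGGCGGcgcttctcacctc
Cdkn2a, proximal start: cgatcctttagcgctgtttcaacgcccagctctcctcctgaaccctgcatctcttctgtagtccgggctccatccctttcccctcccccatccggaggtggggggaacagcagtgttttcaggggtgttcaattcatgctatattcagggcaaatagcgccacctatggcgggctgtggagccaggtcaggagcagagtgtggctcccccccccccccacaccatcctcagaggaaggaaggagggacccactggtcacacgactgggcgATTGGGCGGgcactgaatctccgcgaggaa
Cdkn2b: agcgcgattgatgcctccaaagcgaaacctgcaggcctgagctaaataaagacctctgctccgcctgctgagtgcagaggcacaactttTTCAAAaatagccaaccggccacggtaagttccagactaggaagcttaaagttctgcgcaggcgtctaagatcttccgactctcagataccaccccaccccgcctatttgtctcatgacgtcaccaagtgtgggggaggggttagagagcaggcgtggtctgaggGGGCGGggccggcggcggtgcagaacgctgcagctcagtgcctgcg
Rbl1: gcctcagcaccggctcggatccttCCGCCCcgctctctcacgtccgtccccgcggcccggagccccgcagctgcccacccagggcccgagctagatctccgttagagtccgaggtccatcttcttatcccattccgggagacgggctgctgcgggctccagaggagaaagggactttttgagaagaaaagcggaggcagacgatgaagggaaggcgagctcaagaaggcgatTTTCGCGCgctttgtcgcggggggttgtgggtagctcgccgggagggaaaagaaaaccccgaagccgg

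RefSeq windows were at hand for 8 of the 10 genes, 11 windows in all. None was found for Cdkn1c or Rb1, so the counts below do not cover them. The motifs searched on both strands were TTTCCCGC, TTTGGCGC and TTTCGCGC for E2F, CCAAT for NF-Y, TTTGAA and TTTAAA for the cell cycle homology region (CHR), GGGCGG for SP1 and TATAAA for the TATA box. An E2F motif was in 2 of the 11 windows and in 1.84% of the 32851 windows of all genes. One was TTTCCCGC at bases 152 to 159 of the distal Cdkn2a window, and the other TTTCGCGC at bases 233 to 240 of the Rbl1 window, counted from 1 at the 5′ end. GGGCGG was in 9 of 11 windows, against 35.7% of all windows, CCAAT in 4 of 11, against 37.4%, and a CHR motif in 3 of 11, against 27.6%. TATAAA was in 0 of 11, against 13.6%. In the proximal Cdkn2a window CCAAT (bases 271 to 275, minus strand) and GGGCGG (bases 274 to 279) share bases. The distal Cdkn1a window holds the p53 response element at bases 200 to 219, a pair of abutting decamers. That element was searched for only after the window had been read, with both cores exact and at most 1 other mismatch, and 18 of the 32851 windows (0.0548%) held one. These matches describe letters in a window and say nothing of binding in these cells.

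The libraries held 30240750 to 38619711 counts in KO and 26955708 to 30235906 in WT, and a count of 3, the limit that a count of 0 allows, was 0.0777 to 0.0992 CPM in KO and 0.0992 to 0.111 CPM in WT (counts per 1000000; here of the library total, and for counting error only, while every other CPM is from TMM-scaled libraries). Actb, the targeted gene, had 276, 1988 and 1850 counts in KO replicates 1, 2 and 3 and 60501, 60582 and 53894 in the WT replicates. KO replicate 1 stood apart from the other KO libraries: a chi-square statistic of counts came to 169 and 167 per gene between it and KO replicates 2 and 3, against 26.2 between those and 16.9 to 31.5 between WT pairs. Values without it are therefore given beside the results for the 10 genes, and for the lists where their counts moved. Of the 10 tested fibroblast markers 7 were higher in KO and 0 lower in edgeR (0 also at an unadjusted p below 0.05, with DESeq2 and with limma-voom), and the 11 listed summed to 3746 to 4173 CPM in KO and 1237 to 1429 CPM in WT. Col1a1 and Vim were abundant in both genotypes, whereas Thy1 was at 0.533 ± 0.193 CPM in KO and 0.0105 ± 0.0181 CPM in WT (SD, n = 3 each). Of 6 tested adipocyte markers 4 were higher and 1 lower, with Adipoq, Plin1 and Lep at or near 0 in both genotypes. The 10 listed summed to 212.7 to 345.2 CPM in KO and 36.6 to 48.5 CPM in WT. Of these, Lpl was at 142 ± 4.86 CPM in KO and 2.74 ± 1.44 CPM in WT (SD, n = 3 each). Fabp4, not called, was at 109, 8.60 and 16.2 CPM in KO replicates 1, 2 and 3 and 7.55 ± 2.48 CPM in WT. The lower gene was Cebpa, with 30 counts in KO and 522 in WT (-4.20 log2, adjusted p = 0.000813). Macrophage markers (21.6 to 31.1 CPM in KO, 19.5 to 37.7 CPM in WT, 1 of 4 tested lower) had Ptprc, Adgre1, Tyrobp and C1qa at or near 0. Cd14 (mean 17.8 CPM in KO, 16.2 CPM in WT) and Cd68 (6.36 CPM in KO, 11.5 CPM in WT) had the highest means of that list and did not pass. The lower gene was Fcer1g, with 4 counts in KO and 55 in WT (-3.71 log2, adjusted p = 0.00640). Endothelial markers summed to 2.20 to 3.76 CPM in KO and 3.43 to 4.69 CPM in WT (1 of 5 tested lower), with Cdh5 near 0. Epithelial markers summed to 30.4 to 50.8 CPM in KO and 5.28 to 10.4 CPM in WT, mostly from Krt18 and Krt19, both higher. Epcam, at 0 counts in KO and 127 in WT, was at least 14.7-fold lower against a floor of 3 counts per library. Cdh1 (6 counts in KO, 29 in WT), Krt8 (8, 19) and Esrp1 (3, 13) were too low to be tested. In CPM every KO library lay below every WT library for these, and the groups overlapped for Cldn4 and Krt5, also not tested. The count of lower markers was 2 without KO replicate 1 in each of the macrophage, endothelial and epithelial lists, 2 without KO replicate 2 in the epithelial one, and 0 without KO replicate 2 or any 1 WT replicate in the endothelial one, and 2 adipocyte markers were higher without WT replicate 1 or 2. What part such shifts have in the results below was not tested, and in bulk RNA fewer cells of a type and less RNA per cell cannot be told apart.

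The contrast of KO with WT cells addresses which of these brakes on the cell cycle are expressed at another level in cells that lack beta-actin. In KO cells 3 INK4 genes were higher, Cdkn2a, Cdkn2b and Cdkn2c, by 1.51-fold to 1.64-fold. Transcripts of the CIP/KIP genes Cdkn1a and Cdkn1c were lower in KO, Cdkn1a by 2.19-fold and Cdkn1c to near 0, and Rbl1, which encodes p107, was 1.83-fold lower. Cdkn1b, Cdkn2d, Rb1 and Rbl2 did not pass the test. A gene was counted as higher or lower where the edgeR quasi-likelihood test gave a p below 0.05 after Benjamini-Hochberg adjustment across the 15009 genes, and all adjusted p-values below are of that kind unless another tool is named.

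Thus 3 of the 10 genes were higher and 3 lower, where among all tested genes 13.8% were higher (2074) and 14.5% lower (2181), 28.3% in all. The KO and WT values did not overlap for 7 of the 10, against 49.6% of all tested genes. The median log2 fold change was 0.17 over the 10 genes and 0.01 over all tested genes. With library totals in place of TMM scaling the median of all genes shifted by -0.20 log2, and 1351 genes were higher and 3347 lower, 28.8% of the changed genes higher in place of 48.7%. With that scaling Cdkn2b was not called (0.40, adjusted p = 0.0995), and the directions of the 6 changed genes were kept under every scaling tried. Leaving out WT replicate 2 reduced the higher genes to 1, Cdkn2c. Without KO replicate 1, 3 of the 10 genes were higher and 4 lower, and of all genes tested then 3075 were higher and 3462 lower.

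**Figure D1:**
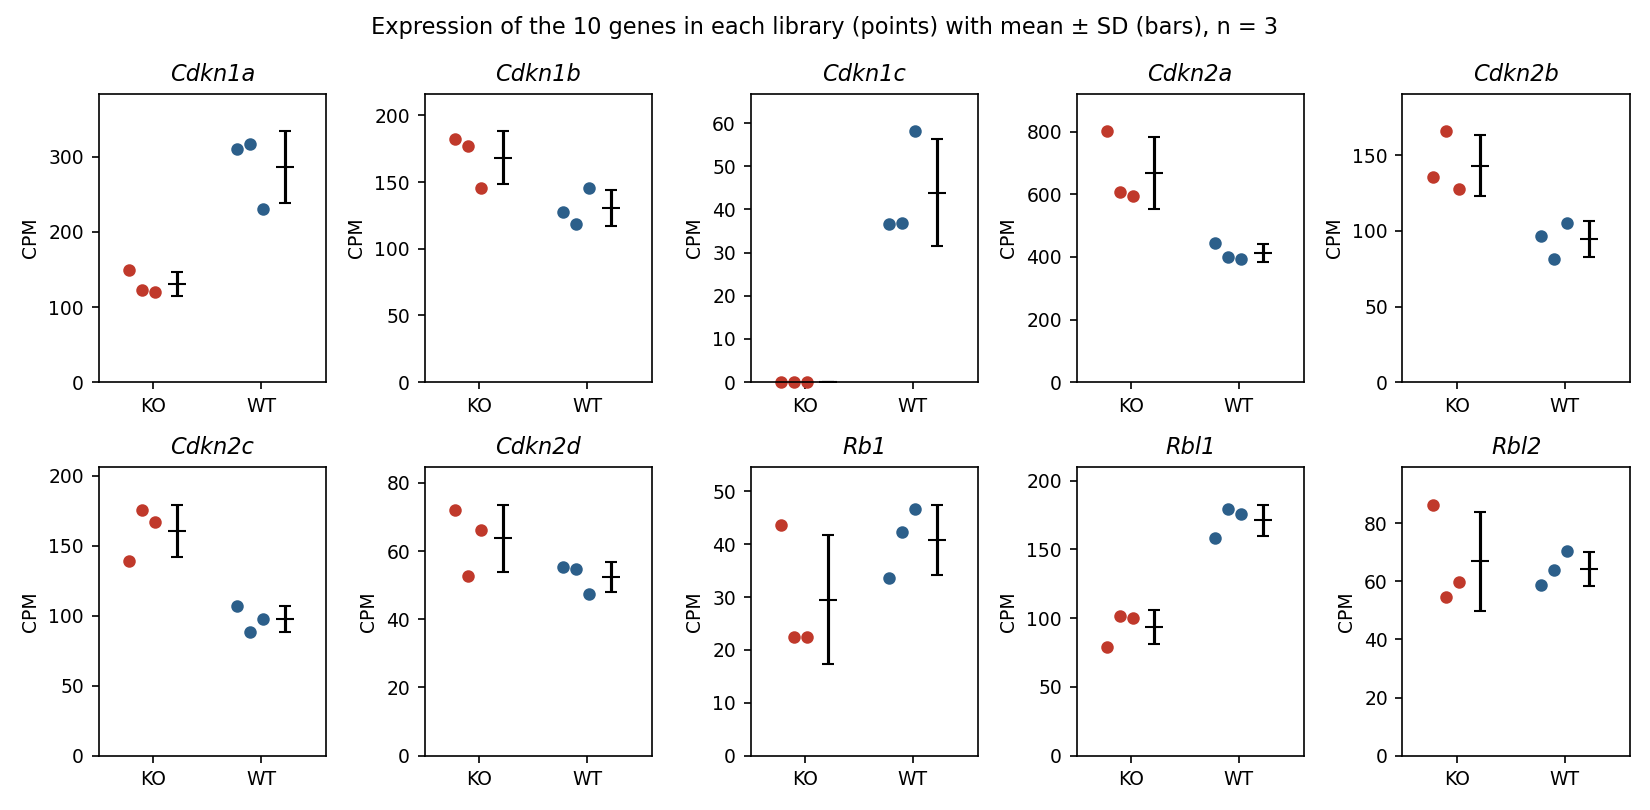
Counts per 1000000 (CPM, y axes from 0) of the 10 genes in each of 3 KO and 3 WT libraries (points), with mean ± SD beside them (bars). KO points lie below all WT points for Cdkn1a, Cdkn1c and Rbl1, and above them for Cdkn1b, Cdkn2a, Cdkn2b and Cdkn2c, for Cdkn1b by 145.8 against 145.6 CPM.

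Among the CIP/KIP genes, Cdkn1a (ENSMUSG00000023067, chr17:29090976-29100727, plus strand, GRCm38) encodes p21, the classical p53-induced inhibitor. It was at 149, 122 and 121 CPM in KO replicates 1, 2 and 3 and at 311, 317 and 231 CPM in the WT replicates. All 3 KO libraries lay below all 3 WT libraries, and WT replicate 3 was the lowest of its group. The means were 131 ± 15.8 CPM in KO and 286 ± 47.9 CPM in WT (SD, n = 3 each), a log2 fold change of -1.13 (SE 0.18, adjusted p = 0.00228). Without KO replicate 1 it was -1.24 (adjusted p = 0.000487). A transcript on the other strand, AC167363.2, shares 7.68% of its exon bases. The nearest gene before it, Trp53cor1, whose product is the p53-induced long noncoding RNA lincRNA-p21, starts 11797 bases away on the opposite strand. Trp53cor1 had 1.73, 2.19 and 2.12 CPM in KO libraries and 3.80, 5.00 and 4.76 CPM in WT libraries, also without overlap (log2 fold change -1.16, SE 0.16, adjusted p = 0.0107). It was the only one of the 7 other tested genes within 200 kb of Cdkn1a to differ. Rab44, the nearest after it, had 2 counts in KO and 11 in WT and was not tested.

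Cdkn1c (ENSMUSG00000037664, chr7:143458339-143461050, minus strand) encodes p57 and is expressed from the maternal copy. Its counts were 0, 0 and 2 in the KO libraries and 1167, 1176 and 1722 in the WT libraries, or 0, 0 and 0.0544 CPM in KO and 36.7, 37.0 and 58.2 CPM in WT. Every WT library was far above every KO library, and only KO replicate 3 held any read. The ratio of WT to KO, from summed counts and library sizes, was 2117, with a 95% counting interval of 586 to 17485. The fitted log2 fold change of -10.81 (adjusted p = 3.28e-05) depends on the prior count and had rank 3 by size among the tested genes. Without KO replicate 1 it was -10.41 (adjusted p = 1.04e-05). An annotated antisense transcript, Gm44732, covers 30.7% of the exon bases, and the strand setting of the counting is not given, so reads of the pair cannot be told apart.

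Cdkn1c lies in an imprinted cluster in which the long noncoding RNA Kcnq1ot1, made from the paternal copy, is known to silence neighbours in cis. Of the 6 other tested genes within 200 kb of Cdkn1c, 1 was higher and 3 lower in KO. Kcnq1ot1 was at 22.4, 22.8 and 19.7 CPM in KO libraries and 6.44, 8.05 and 9.69 CPM in WT libraries. It was the one that was higher, with no overlap (1.42 log2, SE 0.18, adjusted p = 0.00169), and Kcnq1, on the opposite strand, had 0, 2 and 0 counts in KO and 2, 2 and 1 in WT. Slc22a18, a transporter gene of the cluster, had 0, 2 and 0 counts in KO and 31, 53 and 10 in WT, a WT to KO ratio of 48.9 with a counting interval of 13.2 to 410.1 (adjusted p = 0.00679). Phlda2, which restrains placental growth, had 0 counts in every KO library and 12, 20 and 18 in WT, at least 5.79-fold lower against a floor of 3 counts per library (adjusted p = 0.00311). Both are maternally expressed in mouse placenta. Tnfrsf22, a decoy receptor, was at 1.31 ± 0.0648 CPM in KO and 8.15 ± 0.958 CPM in WT (SD, n = 3 each; -2.63 log2, adjusted p = 0.000262). Nap1l4 (0.14 log2, adjusted p = 0.456) and Cars (0.02 log2, adjusted p = 0.949), between Phlda2 and Tnfrsf22, did not pass the test. Gm27901, the nearest annotated gene before Cdkn1c, had 0 counts in every library.

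Cdkn1b (ENSMUSG00000003031, chr6:134920401-134925513, plus strand) encodes p27, an inhibitor that is set in large part by protein degradation. It was at 182, 177 and 145.8 CPM in KO and at 127, 119 and 145.6 CPM in WT. The groups did not overlap, but KO replicate 3 and WT replicate 3 were almost level, and the log2 fold change of 0.37 (SE 0.13, adjusted p = 0.0788) did not pass. With DESeq2 it did, at an adjusted p of 0.0496, and without KO replicate 1 it was 0.31 (adjusted p = 0.0750). Of 8 tested genes within 200 kb, only Apold1 differed (1.88 log2, adjusted p = 0.00543), and Lockd, a noncoding RNA that starts 3579 bases downstream, did not pass (0.69 log2, adjusted p = 0.0688).

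Among the INK4 genes, Cdkn2a (ENSMUSG00000044303, chr4:89274471-89294653, minus strand) encodes p16Ink4a and p19Arf from first exons that start at 89282192 and 89294653. Counts per gene do not separate those products. It was at 801, 607 and 594 CPM in KO and 444, 399 and 391.6 CPM in WT. Every KO library lay above every WT library, with KO replicate 1 the highest. The means were 668 ± 116 CPM in KO and 412 ± 28.3 CPM in WT (SD, n = 3 each), a log2 fold change of 0.70 (SE 0.15, adjusted p = 0.0135). Without KO replicate 1 it was 0.55 (adjusted p = 0.00305), and leaving out WT replicate 2 (0.67, adjusted p = 0.0699) or WT replicate 3 (0.66, adjusted p = 0.0585) ended the call.

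Cdkn2b (ENSMUSG00000073802, chr4:89306299-89311039, minus strand) encodes p15, the INK4 protein known to be induced by TGF-beta, and lies 11646 bases from Cdkn2a. It had 136, 166 and 127.5 CPM in KO and 96.8, 81.7 and 105.4 CPM in WT, again without overlap. The log2 fold change came to 0.60 (SE 0.16, adjusted p = 0.0209), or 0.63 without KO replicate 1 (adjusted p = 0.00895). It was no longer called without KO replicate 2 (adjusted p = 0.0568), WT replicate 1 (0.0707) or WT replicate 2 (0.0976). Cdkn2a and Cdkn2b are similar in sequence, and how reads shared by them were treated is not given. Of the 4 other tested genes within 200 kb of the pair, Mtap and Gm12602 were higher and Gm12609 (0.03 log2) and Gm12610 (0.20 log2) did not pass. Mtap, a methionine salvage enzyme gene often co-deleted with the human locus, was at 272, 303.7 and 283 CPM in KO and 152.5, 144 and 168 CPM in WT (0.89 log2, SE 0.08, adjusted p = 0.00144). Gm12606, next to Cdkn2a, had 3 counts in KO and 17 in WT and was not tested.

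Cdkn2c (ENSMUSG00000028551, chr4:109660876-109667189, minus strand) encodes p18. It was at 139, 175 and 167 CPM in KO and 107, 88.1 and 97.9 CPM in WT. No KO library fell in the WT range, and KO replicate 1 was the lowest KO value. The means of 160.4 ± 18.8 CPM in KO and 97.6 ± 9.42 CPM in WT (SD, n = 3 each) gave a log2 fold change of 0.72 (SE 0.13, adjusted p = 0.00655). Without KO replicate 1 it was 0.81 (adjusted p = 0.000554). With all libraries its 0.72 was the largest positive value of the 10 genes, less than 1 SE above the 0.70 of Cdkn2a, which was the larger without KO replicate 2 (0.77 for Cdkn2a, 0.65 for Cdkn2c), KO replicate 3 (0.78, 0.69) or WT replicate 2 (0.67, 0.64). Its neighbours 9630013D21Rik (0.46 log2, adjusted p = 0.289) and Faf1 (0.43 log2, adjusted p = 0.188) did not pass, and the remaining one of the 3 tested genes within 200 kb, Rnf11, was higher (0.56 log2, adjusted p = 0.0296).

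Cdkn2d (ENSMUSG00000096472, chr9:21288410-21291407, minus strand) encodes p19Ink4d, which is unrelated to p19Arf. It was at 72.1, 52.8 and 66.2 CPM in KO and 55.3, 54.7 and 47.4 CPM in WT, with KO replicate 2 inside the WT range. The log2 fold change of 0.28 (SE 0.15, adjusted p = 0.187) did not pass, nor did that of 0.18 without KO replicate 1 (adjusted p = 0.259). Of 12 tested genes within 200 kb of it, 6 were lower, among them Kri1 at 441 bases (-0.52 log2, adjusted p = 0.0419), and 1 was higher.

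Of the retinoblastoma family, Rbl1 (ENSMUSG00000027641, chr2:157145893-157204534, minus strand) encodes p107, the member whose own transcription is known to be under E2F control. It was at 79.1, 101.2 and 100.2 CPM in KO and 158, 179.5 and 176 CPM in WT. All KO values lay below all WT values, and KO replicate 1 was the lowest. The means were 93.5 ± 12.5 CPM in KO and 171 ± 11.4 CPM in WT (SD, n = 3 each), a log2 fold change of -0.87 (SE 0.13, adjusted p = 0.00291), or -0.76 without KO replicate 1 (adjusted p = 0.000468). Of the 7 other tested genes within 200 kb, 6 were lower, Soga1 the most (-1.27 log2, SE 0.12, adjusted p = 0.000562), with Gm14276, Dsn1, Manbal, Rpn2 and Samhd1, and Ndrg3 did not pass (-0.25 log2). Samhd1, the nearest tested gene, encodes a nucleotide triphosphatase and was at 112 ± 17.8 CPM in KO and 153 ± 8.83 CPM in WT (-0.46 log2, adjusted p = 0.0441). Mroh8, nearer still, had 4 counts in KO and 17 in WT and was not tested.

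Rb1 (ENSMUSG00000022105, chr14:73183673-73325822, minus strand) encodes pRB. It was at 43.5, 22.5 and 22.4 CPM in KO and 33.5, 42.3 and 46.6 CPM in WT. KO replicates 2 and 3 lay below every WT library, and KO replicate 1 lay among them. The log2 fold change was -0.47 (SE 0.35, adjusted p = 0.244), and without KO replicate 1 it was -0.86 and passed (adjusted p = 0.00238). Rcbtb2 and Lpar6, on the other strand, share 8.11% and 6.78% of its exon bases. In KO replicate 1 Rcbtb2 was at 14.9 CPM and Lpar6 at 1.62 CPM, the lowest of the 6 libraries in each case. Rbl2 (ENSMUSG00000031666, chr8:91070057-91123844, plus strand), which encodes p130, the pocket protein of resting cells, was at 86.4, 54.4 and 59.7 CPM in KO and 58.7, 63.8 and 70.4 CPM in WT. KO replicate 1 was above every WT library and KO replicate 2 below every one, and the log2 fold change of 0.05 (SE 0.22, adjusted p = 0.850) changed sign with the scaling (-0.16 with library totals, -0.012 with upper-quartile scaling), without KO replicate 1 (-0.17) and without WT replicate 1 (-0.014). On the other strand, Gm45464 shares 11.8% of the exon bases of Rbl2 and Aktip 9.17%. Aktip was at 81.8 CPM in KO replicate 1, against 36.96 to 42.7 CPM in the other 5 libraries.

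**Figure D2:**
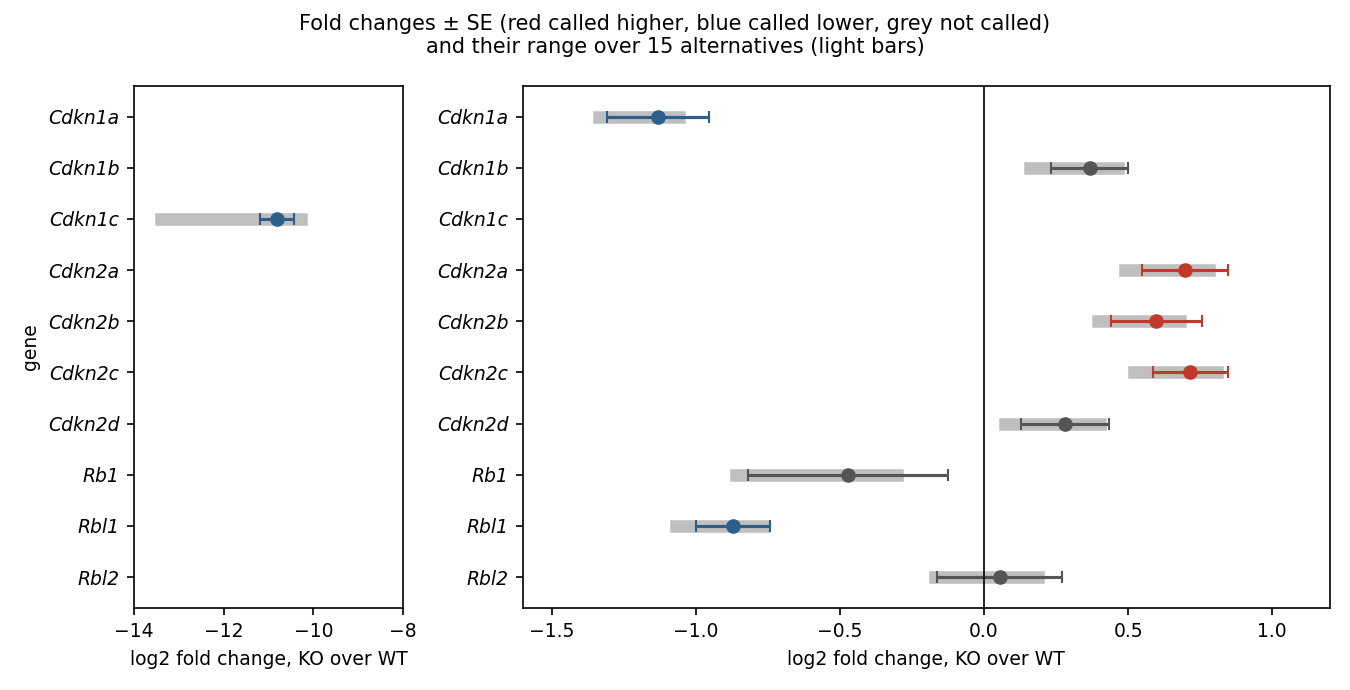
Log2 fold changes of KO over WT (x axes; points, ± SE) for the 10 genes, red called higher, blue called lower and grey not called, with the range over 15 alternative settings as light bars. Cdkn1c has an axis of its own at -10.81, and the light bars cross 0 only for Rbl2 (-0.17 to 0.19).

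Levels were compared between genes as RPKM, CPM divided by the length of the merged exons in kb. Cdkn2a had the highest level of the 10 in both genotypes, 569.6 ± 98.8 RPKM in KO and 351 ± 24.1 RPKM in WT (SD, n = 3 each), above 99.5% of tested genes in KO and 99.4% in WT. In KO the order below it was Cdkn2b (103.0), Cdkn2c (59.7), Cdkn2d (40.5), Cdkn1b (37.0), Cdkn1a (36.8), Rbl1 (15.6), Rbl2 (8.84), Rb1 (4.90) and Cdkn1c (0.00889 RPKM). The neighbours in that order whose library ranges overlapped were Cdkn2d with Cdkn1b, Cdkn1b with Cdkn1a, and Rbl2 with Rb1. In WT the order was Cdkn2a, Cdkn1a (80.6), Cdkn2b (68.1), Cdkn2c (36.4), Cdkn2d (33.3), Cdkn1b (28.7), Rbl1 (28.6), Cdkn1c (21.5), Rbl2 (8.51) and Rb1 (6.79 RPKM). There the overlapping neighbours were Cdkn1a with Cdkn2b, Cdkn2c with Cdkn2d, Cdkn2d with Cdkn1b, Cdkn1b with Rbl1, and Rbl1 with Cdkn1c. With merged exons Cdkn1a was thus sixth in KO and second in WT. Levels and order depend on the exon length used: with the longest transcript Cdkn1a came to 62.8 RPKM in KO and 138 RPKM in WT, which in KO put it above Cdkn2d (44.8) and Cdkn1b (37.0), and Rbl2 to 13.6 RPKM in KO and 13.1 RPKM in WT.

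**Figure D3:**
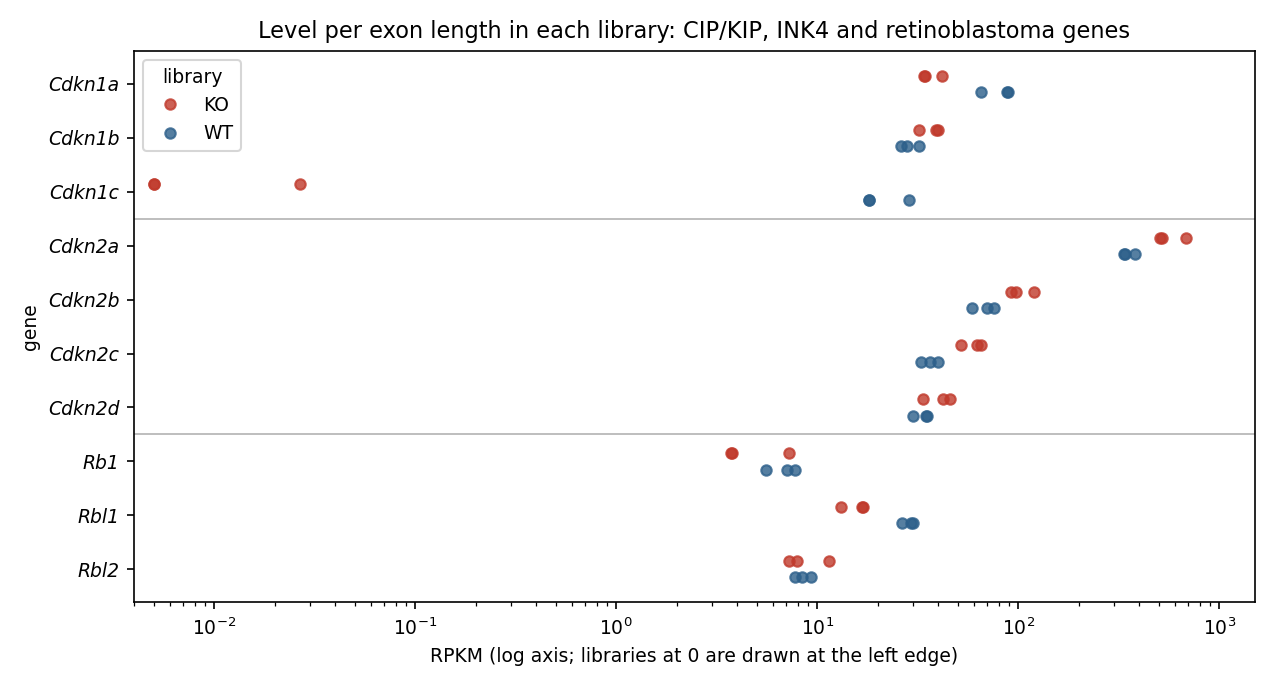
Level per exon length (RPKM, log axis) of the 10 genes in each KO and WT library, in the 3 families from top to bottom, with libraries at 0 drawn at the left edge. Cdkn2a lies highest in all 6 libraries, at 507 to 684 RPKM in KO and 334 to 379 RPKM in WT, and Cdkn1c in KO, at 0 to 0.0267 RPKM, lies below every other point.

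Summed over each family, the INK4 genes came to 879, 736 and 703 RPKM in KO and 523, 467 and 476.5 RPKM in WT, a KO to WT ratio of 1.58. The CIP/KIP genes came to 82.0, 73.3 and 66.0 RPKM in KO and 133, 133 and 125.5 RPKM in WT, a ratio of 0.564. The pocket protein genes came to 31.9, 27.8 and 28.3 RPKM in KO and 39.7, 45.4 and 46.4 RPKM in WT, a ratio of 0.669. In each family the KO and WT sums did not overlap, the INK4 sum higher and the other sums lower in KO. Within the INK4 sum Cdkn2a took 70.4% to 77.8% in KO libraries and 70.1% to 72.9% in WT libraries. Within the CIP/KIP sum Cdkn1b took 48.5% to 53% in KO and 19.6% to 25.5% in WT. Cdkn1a took 47.0% to 51.4% in KO and 51.8% to 66.9% in WT. These sums and shares use merged exons, 3553 bases for Cdkn1a, whose longest transcript has 2080, and 4552 by either measure for Cdkn1b. With the longest transcript Cdkn1a would take a larger share and Cdkn1b a smaller one, so their near-equal shares in KO depend on that length. Rbl1 took 41.4% of the pocket protein sum in KO replicate 1 and 60.7% and 59.0% in KO replicates 2 and 3, against 63.2% to 66.4% in WT.

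The genes whose profiles over the 6 libraries were most like that of Cdkn2c were Ece2, Prdx4 and Cmtm7, out of 11817 candidates with a mean of at least 1 CPM. The measure was the root mean square difference of log2 CPM centred on each gene's mean, at 0.0451, 0.0589 and 0.0632. Prdx4, a peroxiredoxin gene, was at 240.0 ± 25.2 CPM in KO and 144 ± 21.9 CPM in WT (SD, n = 3 each). Most like Cdkn1c were Zic1 (0.383), Fam213b (0.579) and Cthrc1 (0.599). Zic1, which encodes a zinc finger transcription factor, had 0, 0 and 6 counts in KO and 1485, 1423 and 1429 in WT. Because it was picked by likeness over these same libraries, its reads only in KO replicate 3 among the KO libraries are no separate result.

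The other genes of the pathway were described by lists, each by its counts beside 13.8% higher and 14.5% lower over all tested genes, with a median of 0.01 log2. Of 15 cyclins and kinases 3 were higher and 1 lower (median 0.04 log2). Ccnd3, for cyclin D3, was at 136 ± 11.9 CPM in KO and 93.5 ± 4.26 CPM in WT (SD, n = 3 each; 0.54 log2, adjusted p = 0.00951), and Ccna2 (0.77, adjusted p = 0.0213) and Ccnb1 (0.40, adjusted p = 0.0445), cyclins of later phases, were also higher. Cdk4, the kinase that INK4 proteins bind, was at 508 ± 49.97 CPM in KO and 718 ± 81.9 CPM in WT (SD, n = 3 each; -0.50 log2, adjusted p = 0.0359). Cdk6 (-0.30, adjusted p = 0.391) and Cdk2 (-0.25, adjusted p = 0.274) did not pass. Nor did the other D-type cyclin genes, Ccnd1 (-0.72, adjusted p = 0.314) and Ccnd2 (0.18, adjusted p = 0.289). Ccnd1 was at 9.24, 44.2 and 36.2 CPM in KO replicates 1, 2 and 3 and 46.0, 63.0 and 38.8 CPM in the WT replicates. The higher genes were 5 without KO replicate 1 and 1 without WT replicate 1, 2 or 3, and the lower one was lost without KO replicate 2 or 3 or WT replicate 1 or 2. With library totals 1 was higher and 2 were lower.

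Of 18 E2F, DP and DREAM genes 2 were higher and 5 lower (median -0.05 log2). E2f5 (0.87, adjusted p = 0.00527) and E2f6 (0.87, adjusted p = 0.00962), whose products are known as repressors, were higher. Lower were the activator genes E2f1, at 107, 76.8 and 78.1 CPM in KO and 136, 151.5 and 151 CPM in WT (-0.74, SE 0.16, adjusted p = 0.0102), and E2f2 (-1.09, adjusted p = 0.0157), the atypical repressor genes E2f7 (-0.44, adjusted p = 0.0219) and E2f8 (-0.66, adjusted p = 0.00604), and Foxm1 (-0.42, adjusted p = 0.0232). The activator gene E2f3 (0.03, adjusted p = 0.886) and the repressor gene E2f4 (-0.13, adjusted p = 0.494) did not pass. The count of lower genes was 6 without KO replicate 1, 3 without KO replicate 2 or 3 or WT replicate 3, and 2 without WT replicate 2, where 1 was higher.

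Of 19 replication genes known as E2F targets 0 were higher (1 at an unadjusted p below 0.05, and 1 with DESeq2 or limma-voom) and 2 lower, among them Cdt1 (-0.46, adjusted p = 0.0380), which licenses replication origins, with a median of -0.22 log2. The genes that mark growing cells, Mki67 (0.18, adjusted p = 0.579) and Pcna (-0.21, adjusted p = 0.522), did not pass, nor did Rrm2 (-0.81, adjusted p = 0.0786). This list moved with the setting: 7 were lower with library totals, 4 with DESeq2 and 5 without KO replicate 1, 1 without KO replicate 2 or 3 or WT replicate 2, and 0 without WT replicate 1 or 3. One was higher without KO replicate 1 or WT replicate 1.

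The p53 list held p53, its regulators and its known targets other than Cdkn1a, and 8 of 15 tested genes were lower and 1 higher (median -0.73 log2). Trp53, for p53 itself, was at 44.2, 89.7 and 86.3 CPM in KO and 153, 143 and 145.5 CPM in WT, without overlap (-1.001, SE 0.33, adjusted p = 0.0220). Mdm2, a p53 target that also degrades p53, was at 107 ± 29.1 CPM in KO and 267.5 ± 32.9 CPM in WT (SD, n = 3 each; -1.33, adjusted p = 0.00311). Ccng1 (-1.67, adjusted p = 0.000437) and Sesn2 (-1.23, adjusted p = 0.000733), both p53 targets, were lower as well, with Btg2, Bax, Zmat3 and Phlda3. The higher gene was Trp63 (1.33, adjusted p = 0.0289), a relative of p53, and Gadd45a (0.47, adjusted p = 0.536) and Sesn1 (0.21, adjusted p = 0.254) did not pass. Without KO replicate 1, 12 were lower, and over the 15 alternatives 6 to 12. The call of Trp63 was lost without KO replicate 3 or any 1 WT replicate, and with library totals.

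Of 20 tested regulators of the INK4-ARF locus 4 were higher and 1 lower (median 0.09 log2). Among the higher ones were the Polycomb genes Cbx8 (0.69, adjusted p = 0.00909), Cbx2 (0.58, adjusted p = 0.0124) and Rnf2 (0.52, adjusted p = 0.0294), whose proteins belong to the complex known to repress Cdkn2a. Ring1, of the same complex, was lower (-0.49, adjusted p = 0.0148). Bmi1 (0.14, adjusted p = 0.562) and Ezh2 (-0.05, adjusted p = 0.805), known repressors of the locus, did not pass. The higher genes were 2 without WT replicate 1 and 1 without WT replicate 2, and the lower ones 2 without KO replicate 1 and 0 without KO replicate 2 or 3 or WT replicate 1 or 2. With library totals 2 were higher and 3 lower.

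Of 17 TGF-beta, FoxO and Myc genes, known inputs to Cdkn2b, Cdkn1b and Cdkn1a, 6 were higher and 0 lower (median 0.16 log2; 0 lower also at an unadjusted p below 0.05 in edgeR, with DESeq2 and with limma-voom). Tgfb3, a TGF-beta ligand, was at 21.5, 30.9 and 28.8 CPM in KO and 9.59, 9.21 and 11.8 CPM in WT (1.41, SE 0.19, adjusted p = 0.00180). Tgfbr1, its type I receptor, was at 128 ± 29.7 CPM in KO and 56.2 ± 1.36 CPM in WT (SD, n = 3 each; 1.19, adjusted p = 0.00254). Foxo4 (1.09, adjusted p = 0.0178) and Foxo1 (0.73, adjusted p = 0.0345), activators of Cdkn1b transcription, were also higher, with Tgfb2 and Mxd4. The remaining TGF-beta genes of the list did not pass. They were Tgfb1 (-0.18, adjusted p = 0.4175), Tgfbr2 (-0.11, adjusted p = 0.697), Smad2 (-0.05), Smad3 (-0.04), Smad4 (0.43, adjusted p = 0.2375) and Smad7 (0.05, adjusted p = 0.852). Foxo3, at 156 ± 51.5 CPM in KO and 172 ± 16.5 CPM in WT (SD, n = 3 each), the highest CPM of the listed FoxO genes, did not pass (-0.14, adjusted p = 0.663), nor did Myc (0.35, adjusted p = 0.0653). The higher genes were 2 without WT replicate 1 or 2, and 1 was lower without KO replicate 1.

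Of 14 genes listed for degradation of the inhibitors or for activation of CDKs, 3 were higher and 0 lower (median 0.25 log2). It was 0 lower also at an unadjusted p below 0.05 in edgeR, with DESeq2 and with limma-voom. Cul4b (0.43, adjusted p = 0.0335), of the ligase family that degrades p21, was higher. So were Cdc25c (0.66, adjusted p = 0.0336) and Cdc25b (0.84, adjusted p = 0.0395), phosphatase genes listed for activation of CDKs. Skp2, which marks p27 for degradation, did not pass (0.10, adjusted p = 0.613). Their number was 5 without KO replicate 1 and 0 without any 1 WT replicate or with library totals.

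Of 13 genes associated with senescence, in which p16 and p21 are known to hold the arrest, 5 were higher and 1 lower (median 0.73 log2). Mmp3, a secreted protease gene (6.51, adjusted p = 0.000581), Glb1, which encodes the lysosomal beta-galactosidase (0.73, adjusted p = 0.00250), and Igfbp7 (1.00, adjusted p = 0.00899) were higher, as were Il6 and Igfbp5. Hmga1 was lower (-1.06, adjusted p = 0.00599), and Lmnb1, whose loss is a mark of senescent cells, did not pass (0.16, adjusted p = 0.595). Without WT replicate 2 the higher genes were 3.

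**Figure D4:**
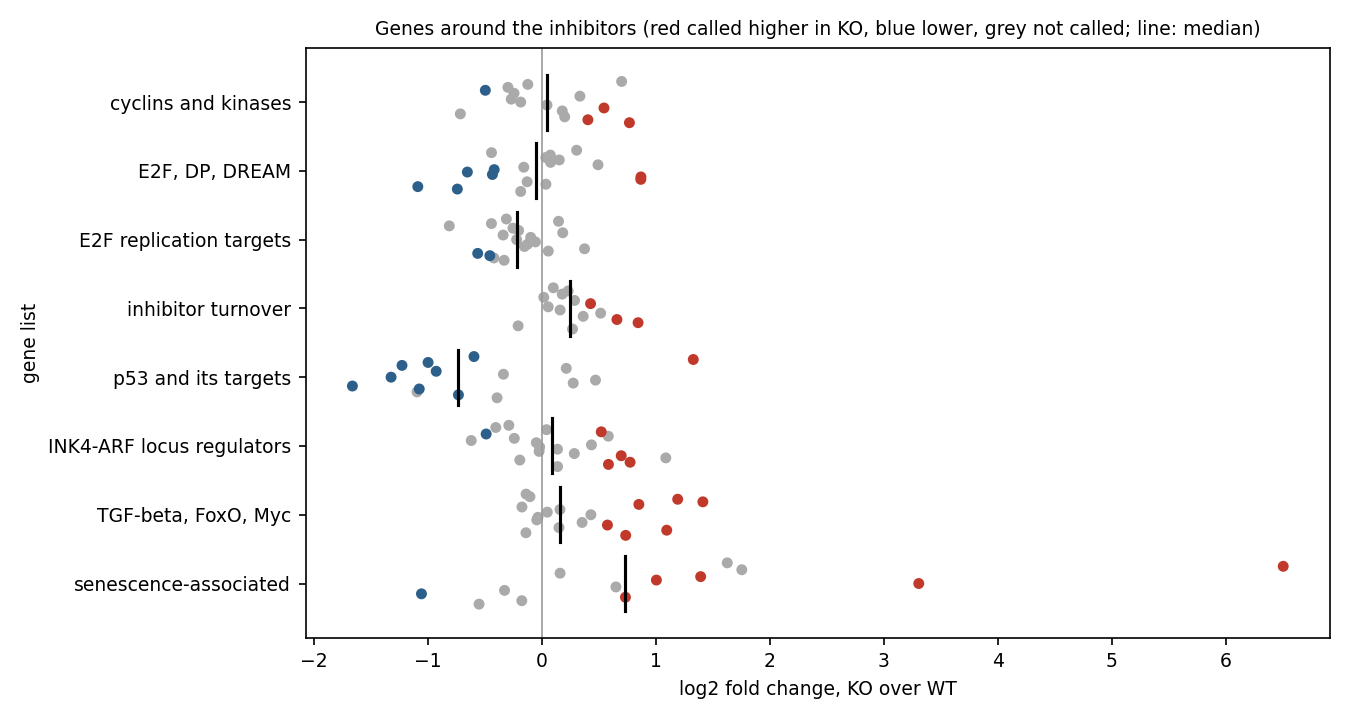
Log2 fold changes of KO over WT (x axis) for the tested genes of 8 lists around the inhibitors (dots; red called higher, blue called lower, grey not called; vertical line, median of the list). Most dots of the p53 list lie left of 0, with a median of -0.73, and the called genes of the TGF-beta, FoxO and Myc list all lie to the right.

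Within 200 kb of the 10 genes 57 other genes were tested, of which 7 were higher and 16 lower, 40.4% against 28.3% of all tested genes. Around Rbl1 85.7% differed, all lower, as Rbl1 was, and around Cdkn2d 58.3%, mostly lower while Cdkn2d itself did not pass. Around Rb1 none of the 6 passed; the gene nearest to the threshold was Rcbtb2 (-0.76 log2, adjusted p = 0.109). With 100 kb the counts were 4 higher and 9 lower of 34, and with 500 kb 10 higher and 36 lower of 128.

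**Figure D5:**
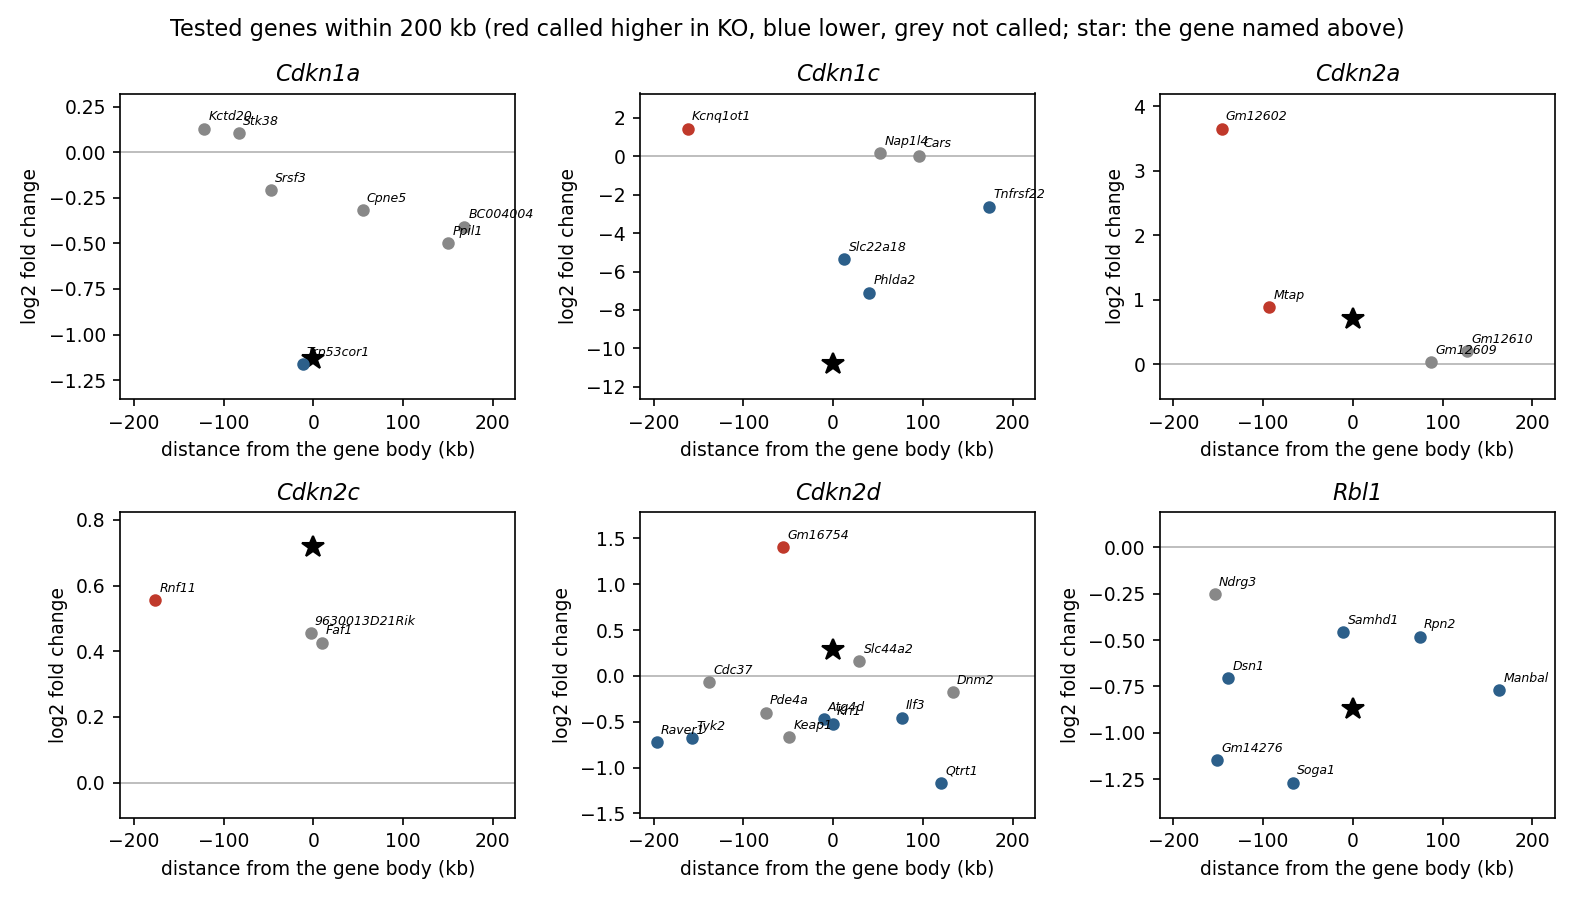
Log2 fold change of KO over WT (y axes, scaled by panel) against distance from the gene body in kb for tested genes within 200 kb of Cdkn1a, Cdkn1c, Cdkn2a, Cdkn2c, Cdkn2d and Rbl1 (star), red called higher, blue lower and grey not called. Next to Cdkn1c, Slc22a18 and Phlda2 lie far below 0, drawn at fitted values, and Kcnq1ot1 above it, and 6 of the 7 genes around Rbl1 are called lower.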

How the data were processed

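Total RNA (TriZol LS, RNeasy) went into TruSeq v2 libraries, per the labels' protocols. The deposited files hold the authors' raw read counts per Ensembl gene, 1 library each. Per the submitters' processing notes the genome build was GRCm38.p4 and the tools included HTSeq, TopHat2 2.1.0 and DESeq2; annotation release and strand setting are not given in the sources at hand. Symbols, positions and exons came from GENCODE M21 (GRCm38), which matched 46005 of 46603 identifiers and left 598 unmatched.

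In R 4.3.3, counts were filtered with edgeR 4.0.16 filterByExpr, scaled by TMM and compared, KO over WT, by the two-sided quasi-likelihood F test with group as the only term. Each standard error belongs to the difference between the genotypes' mean log2 CPM. As alternatives, DESeq2 1.42.0, limma-voom (limma 3.58.1), 3 other scalings, 2 other filters, removal of the 10 most abundant genes, a replicate block and the omission of each library were tried. The fit was tested on simulated data.

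The genes and lists were chosen with earlier results of these data known. Named were all 10 genes, Actb, up to 3 changed genes of each list by smallest p and 1 that moved the opposite way, list genes that bear on a member, the nearest gene on each side of each changed member and the 3 profiles most like those of Cdkn2c and Cdkn1c. Some genes that this rule takes are not reported here. Other neighbours and other list genes were named after their values were seen. Gene-level counts were not split by transcript, and protein sequences were not used here.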

Additional observations from a re-analysis of the deposited data

How the results depend on the processing

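Of the 10 genes, Cdkn1a, Cdkn1c, Cdkn2c and Rbl1 kept their direction and their call under all 15 alternatives, and Cdkn2d stayed uncalled. Rbl2, not called, turned to -0.012 with upper-quartile scaling and -0.16 with library totals, and leaving out 1 library gave -0.17 to 0.19. The genes called higher ranged from 1 to 3 when 1 library was left out. Among all tested genes library totals gave 1351 higher and 3347 lower, and leaving out 1 library gave 1003 to 3075 higher and 1295 to 3462 lower. All gene lists, cell type markers included, had 37 higher and 22 lower genes, 24 higher with library totals, and 18 to 48 higher and 13 to 35 lower without 1 library. The summed RPKM, KO over WT in log2, were -0.83 for CIP/KIP, 0.66 for INK4 and -0.58 for the retinoblastoma family, and with library totals, tried after the data were seen, -1.03, 0.45 and -0.79; the cause was not tested beyond the shift of all genes by -0.20 log2 with that scaling. Equally numbered KO and WT libraries had correlations of -0.101, 0.046 and -0.148 between their deviations across genes. Unequally numbered ones had -0.0439 to 0.168. Deviations were taken from the mean of each genotype's 3 libraries, which ties these correlations to one another. They therefore cannot decide whether equally numbered libraries were handled as pairs. With the replicate block 2 of the 10 genes were higher and 3 lower, Cdkn2b being lost (0.60, adjusted p = 0.0672), and 1446 of all genes were higher and 1599 lower. A fit without a library has less power, and the low counts of Cdkn1c in KO limit how large its ratio can be said to be.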
